A study of Homo sapiens with 148 samples.

Results

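The genes described here are 10 genes of the unfolded protein response, HSPA5, HSP90B1, XBP1, ATF4, ATF6, DDIT3, ERN1, EIF2AK3, DNAJB9 and HERPUD1. They were chosen by name from the deposited table of mean expression, in which each of the 10 had a single entry among 49085 gene names. RNA-seq was made from wild-type H9 cells, a human embryonic stem cell line, before and during directed differentiation to pancreatic islet-like cells, with 2 replicates per stage (12 of the 148 samples of the series). The 6 stages were undifferentiated hESCs, definitive endoderm (DE, day 4), primitive gut tube (PGT, day 7), pancreatic progenitors (PP, day 14), a stage given only as PH, for which neither a day nor a definition was found in the sources used here, and SC-β organoids (day 35). No stage carried an edited allele, and the hESC column is the only undifferentiated reference. All 6 are cultures of a single line, and the later ones are mixtures of cells, so that fewer cells of a type and less RNA per cell cannot be told apart in any value below.

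The unfolded protein response adjusts the folding capacity of the endoplasmic reticulum (ER) to the protein that enters it. The sensors are membrane proteins: IRE1 (gene ERN1) splices XBP1 mRNA into the form that encodes an active transcription factor, PERK (EIF2AK3) phosphorylates eIF2 and so favours translation of ATF4 while slowing that of most mRNAs, and ATF6 is carried to the Golgi and cut to release its own transcription factor. Their targets include the ER chaperones BiP (HSPA5) and GRP94 (HSP90B1), the BiP co-chaperone ERdj4 (DNAJB9), the ER membrane protein HERPUD1, which serves the degradation of misfolded proteins, and CHOP (DDIT3), a factor that ATF4 induces and that is linked to cell death under lasting stress. Islet endocrine cells are known for a heavy secretory load and for their dependence on this response. Gene-level RNA values do not separate spliced from unspliced XBP1, and they hold neither cleavage of ATF6 nor phosphorylation of eIF2, so every value below is an mRNA level and none is a measure of pathway activity.

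Sequence elements recognised by these factors are shown because 4 of the 10 promoters held one and because expression is read against them below. The ER stress response element, CCAAT and CCACG with 9 bases of any kind between them, is bound by ATF6 together with NF-Y. It was searched on both strands of 300-base RefSeq windows on GRCh38.p14, 250 bases before to 50 after each start. It was found in 27 of 35116 windows (0.0769%) and in 3 of the 10 genes: HSPA5, XBP1 and HSP90B1, which held it at 2 places. A shorter relative, ER stress response element II (ATTGG and CCACG with 1 base between them), was added to the search after the data were seen and was found in 19 windows (0.0541%), HERPUD1 among them. The matches lay 48 bases before the start of HSPA5, 34 before XBP1, 176 and 71 before HSP90B1, and 107 before HERPUD1. The 250 bases before each start follow on the strand of the gene, 5′ to 3′, with the matches in capitals, for HSPA5 (chr9:125241344-125241593, minus strand), HSP90B1 (chr12:103930160-103930409, plus strand), XBP1 (chr22:28800570-28800819, minus strand) and HERPUD1 (chr16:56931892-56932141, plus strand).
HSPA5: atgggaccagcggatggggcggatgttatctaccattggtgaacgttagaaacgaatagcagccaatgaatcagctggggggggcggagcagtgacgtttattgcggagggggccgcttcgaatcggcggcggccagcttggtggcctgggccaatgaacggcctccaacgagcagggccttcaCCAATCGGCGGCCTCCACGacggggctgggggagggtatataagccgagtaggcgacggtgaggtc
HSP90B1: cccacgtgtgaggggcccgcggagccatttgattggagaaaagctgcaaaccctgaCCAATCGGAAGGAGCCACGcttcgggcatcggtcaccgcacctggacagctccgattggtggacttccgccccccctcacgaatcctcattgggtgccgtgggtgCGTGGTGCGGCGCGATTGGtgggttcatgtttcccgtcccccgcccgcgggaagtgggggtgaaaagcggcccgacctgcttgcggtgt
XBP1: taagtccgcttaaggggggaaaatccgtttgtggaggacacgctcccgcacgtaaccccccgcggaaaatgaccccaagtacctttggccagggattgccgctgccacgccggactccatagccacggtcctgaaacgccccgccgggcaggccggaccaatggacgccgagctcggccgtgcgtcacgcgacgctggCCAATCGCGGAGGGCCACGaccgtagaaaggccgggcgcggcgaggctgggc
HERPUD1: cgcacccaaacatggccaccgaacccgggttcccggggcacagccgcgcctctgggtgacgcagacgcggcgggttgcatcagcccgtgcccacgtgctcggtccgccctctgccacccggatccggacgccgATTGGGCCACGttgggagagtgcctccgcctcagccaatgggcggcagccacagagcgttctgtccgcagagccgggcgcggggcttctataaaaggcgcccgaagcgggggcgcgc
The second match in HSP90B1 reads on the opposite strand, so its capitals show the element reversed. The UPR element TGACGTGG was found in 256 windows (0.729%) and the C/EBP-ATF response element ATTGCATCA in 83 (0.236%), and neither was in a window of the 10 genes. Read on the other strand the UPR element starts with CCACG, so it can overlap the elements above. A match describes these letters and does not show that a factor was bound, and the lack of a match says only that the letters are not in the window.

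The values are the authors' means of TPM, a length-scaled share of all transcripts, over the replicates of a stage, so each gene had 1 value per stage, with no error and no depth, and no test between stages could be made. Because TPM is divided by transcript length, levels can be set side by side between genes. Ratios are log2((TPM + 1)/(reference TPM + 1)), and "at least 2-fold" refers to that scale. The share of a stage's TPM that went to 6 structural RNA names (RN7SK, RN7SL1, RN7SL2, RMRP, RPPH1 and Metazoa_SRP) ran from 31.8% in DE to 50.9% in PH, where RN7SK alone took 19.7%. That share lowers the TPM of every other gene in a stage. Rescaling by the median ratio over 13938 names moved values relative to hESC by -0.48 (DE), -0.34 (PGT), -0.25 (PP), -0.03 (PH) and -0.52 (SC-β) on the log2 scale, and directions that depend on it are given where they occur. The marker lists of hESCs, DE, PGT and SC-β organoids were each highest in the stage they are named for. The PP list summed to 30.6 TPM in PP and 35.7 TPM in PH. Of the 6 DE markers, SOX17 and EOMES were listed at 0 in PH, and GSC was listed at 0 in PGT and PP. The DE list as a whole summed to 108.9 TPM in PH, above PP (38.8 TPM) and SC-β organoids (39.4 TPM). PH stood apart in other lists. A list of 6 neural markers summed to 1170 TPM there against 69.8 to 127.6 TPM elsewhere. A list of 6 mesenchymal markers summed to 506 TPM in PH (1158 TPM in SC-β organoids, at most 74.6 TPM in the other stages). The part of these other cells in the PH values below was not tested.

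**Figure D1:**
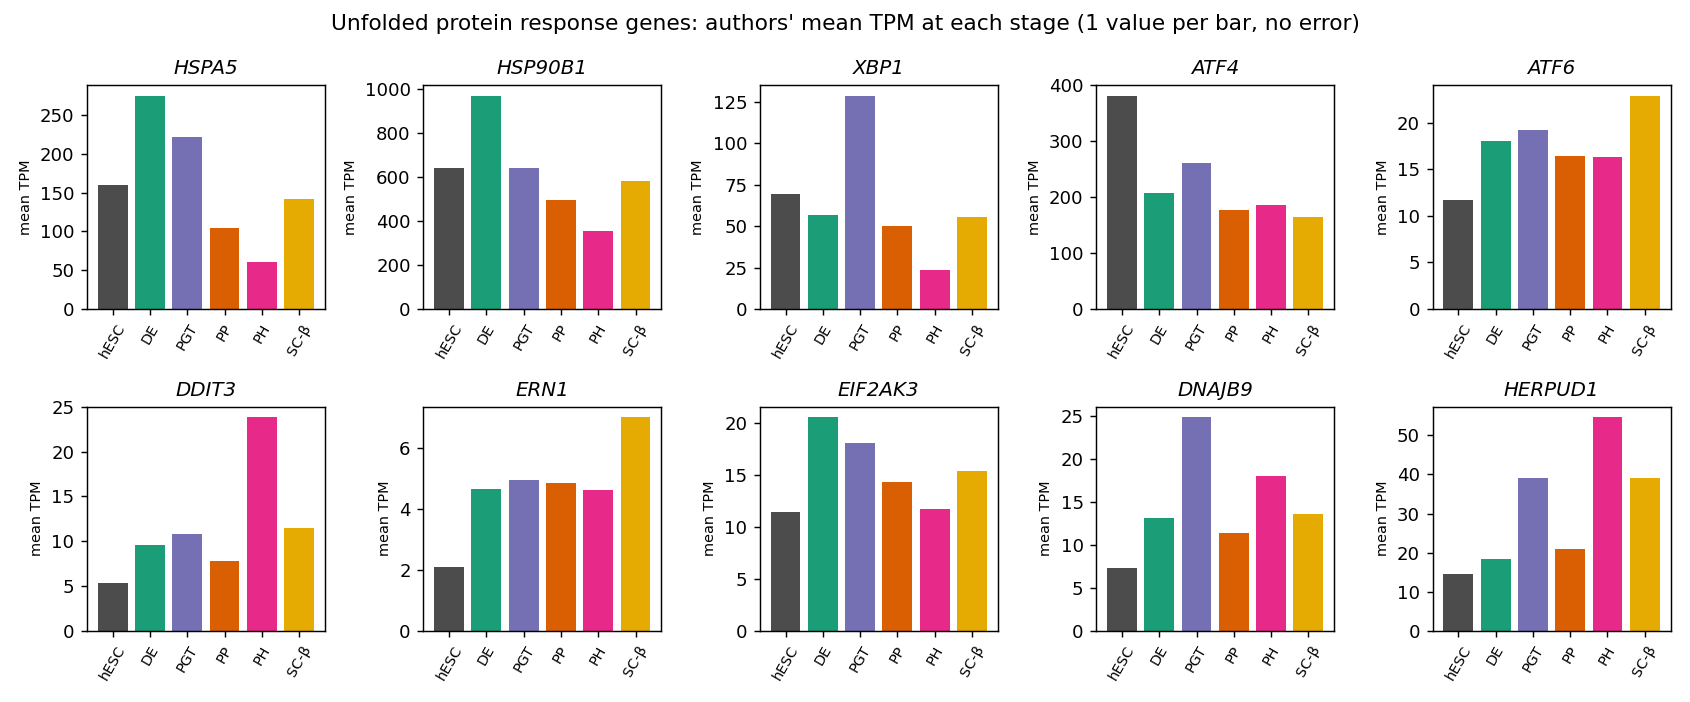
Mean TPM (vertical axis, linear, from 0, with its own scale in each panel) of the 10 unfolded protein response genes at the 6 stages (horizontal axis). Each bar is 1 deposited mean with no error. HSPA5, HSP90B1 and XBP1 were lowest in PH, DDIT3 and HERPUD1 were highest there, and ATF4 was highest in hESCs.

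The 3 sensor genes were expressed at low levels, none above 22.9 TPM in a stage. ERN1, which encodes the IRE1 kinase and nuclease, had 2.09 TPM in hESCs, 4.66 in DE and 4.96 in PGT, then 4.85 in PP, 4.64 in PH and 7.01 in SC-β organoids. It was the least abundant of the 10 genes in every stage. The 4 middle stages lay close together, hESCs stood below them and SC-β organoids above, 3.36-fold apart from lowest to highest. ATF6, a sensor and transcription factor in a single protein, had 11.7 TPM in hESCs, 18.0 in DE and 19.2 in PGT, then 16.4 in PP, 16.3 in PH and 22.9 in SC-β organoids. Its order was close to that of ERN1, with a range of 1.95-fold. Pearson's r of log2(TPM + 1) of these 2 genes over the 6 stage means was 0.96, and 0.97 without PH (n = 5), as a description of values that share libraries and scale. EIF2AK3, the PERK kinase, had 11.4 TPM in hESCs, 20.5 in DE and 18.1 in PGT, then 14.3 in PP, 11.7 in PH and 15.4 in SC-β organoids. It peaked in DE rather than in SC-β organoids, and its range of 1.80-fold was the narrowest of the 10.

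Of the sensors, only ERN1 in SC-β organoids was at least 2-fold from its hESC level with the pseudocount of 1 TPM, at a log2 ratio of 1.38. This ratio was 0.97 after median-ratio rescaling. In DE, PGT, PP and PH the side of 2-fold on which ERN1 lay depended on the pseudocount, since ERN1 had 2.09 TPM in hESCs. Its plain TPM ratios to hESC there were 2.22 to 2.38. With a pseudocount of 0.1 TPM its log2 ratios were 1.12 to 1.21, past 2-fold. After rescaling with the pseudocount of 1 TPM they were 0.51 to 0.89. ATF6 was highest in SC-β organoids as deposited and without the structural RNAs, but highest in PH after median-ratio rescaling (19.4 against 19.3). EIF2AK3 was 0.40 above hESCs in SC-β organoids on the log2 scale and 0.08 below (-0.08) after rescaling, so its side of the hESC level there was set by the scaling. A quantity free of scaling is the ratio of genes within a stage: ATF6 was 0.0307 of ATF4 in hESCs and 0.139 of ATF4 in SC-β organoids, a 4.54-fold difference.

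The 3 transcription factor genes followed 3 different courses. XBP1, whose spliced mRNA encodes the factor downstream of IRE1, had 69.4 TPM in hESCs, 56.5 in DE and 128.9 in PGT, then 50.4 in PP, 23.4 in PH and 55.6 in SC-β organoids. PGT stood above and PH below the other 4 stages, and the 5.51-fold range was the widest of the 10. ATF4, the effector of eIF2 phosphorylation, had 381.1 TPM in hESCs, 207.9 in DE and 261.3 in PGT, then 176.5 in PP, 185.7 in PH and 164.1 in SC-β organoids. It was the only one of the 10 that was highest in hESCs, and its log2 ratios to hESC were -0.87 (DE), -0.54 (PGT), -1.11 (PP), -1.03 (PH) and -1.21 (SC-β). All 5 stayed negative under each alternative scaling, although the PH value was -0.72 without the structural RNAs. DDIT3, the CHOP factor, had 5.32 TPM in hESCs, 9.59 in DE and 10.8 in PGT, then 7.82 in PP, 23.8 in PH and 11.5 in SC-β organoids. PH alone stood apart, at 1.97 above hESCs on the log2 scale. As a share of ATF4 within a stage, DDIT3 was 0.0139 in hESCs and 0.128 in PH, a 9.20-fold difference that no scaling can change.

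DDIT3 overlaps other genes. It lies at chr12:57516588-57521737 on the minus strand (GENCODE version 44, GRCh38), holds MIR616 on the same strand, and meets MARS1 and MBD6 on the other. Another protein-coding gene model, without a symbol, also overlaps it on the same strand. Neither that model nor MARS1 was found under these names among the expression values, so their levels were not read. MIR616, a name whose reads cannot be told from those of its host here, was listed at 1.34 TPM in hESCs and 10.0 TPM in PH, and was the name whose pattern was most like that of HERPUD1 (r = 0.98 of log2 values over 6 stages). MBD6 had 7.95 TPM in PH and 14.8 TPM in SC-β organoids, so its order differed from that of DDIT3. For ATF4, the processed copy ATF4P3 had 7.41 to 13.5 TPM and was also highest in hESCs, and reads shared between the copies are uncertain.

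The 4 target genes fell into a pair of courses that ran opposite to each other in PH. HSPA5, the BiP chaperone, which also binds the sensors in the ER lumen, had 160.2 TPM in hESCs, 275.4 in DE and 221.3 in PGT, then 104.1 in PP, 60.6 in PH and 141.5 in SC-β organoids. DE was highest and PH lowest, 4.54-fold apart. HSP90B1, the GRP94 chaperone and the most abundant of the 10 genes in every stage, had 639.7 TPM in hESCs, 970.2 in DE and 642.5 in PGT, then 494.9 in PP, 354.8 in PH and 580.9 in SC-β organoids. It had the same highest and lowest stages as HSPA5 with a smaller range of 2.73-fold, and r between their log2 values was 0.96 (n = 6 stage means) and 0.91 without PH (n = 5). HSP90B1 was level with hESCs in PGT at a log2 ratio of 0.01, which was -0.33 after rescaling.

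DNAJB9, the ERdj4 co-chaperone and a known XBP1 target, had 7.33 TPM in hESCs, 13.1 in DE and 24.9 in PGT, then 11.4 in PP, 18.1 in PH and 13.6 in SC-β organoids. It was highest in PGT, the stage in which XBP1 was highest, and second highest in PH, the stage in which XBP1 was lowest. HERPUD1, a component of the ER-associated degradation machinery, had 14.6 TPM in hESCs, 18.4 in DE and 39.1 in PGT, then 20.9 in PP, 54.6 in PH and 39.1 in SC-β organoids. PGT and SC-β organoids were level, PH stood above them, and hESCs, DE and PP lay below. Within a stage, HERPUD1 was 0.0669 of HSPA5 in DE and 0.901 of HSPA5 in PH, with 0.177 (PGT), 0.200 (PP) and 0.276 (SC-β) between them. The 13.5-fold difference between DE and PH is free of the scaling, whereas the side of the hESC level on which HERPUD1 lay in DE was not (0.32 as deposited, -0.14 rescaled, log2).

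**Figure D2:**
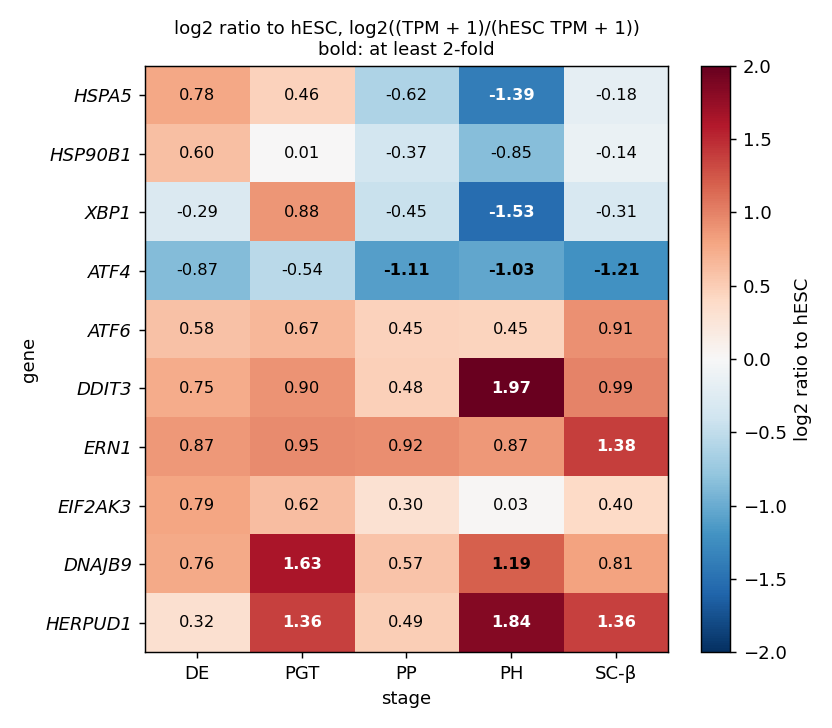
Log2 ratio to hESC (colour scale and printed numbers, pseudocount 1 TPM) of the 10 genes (rows) in the 5 differentiated stages (columns), with bold for at least 2-fold. PH holds 3 bold values above and 3 below hESCs, and ATF4 is the only gene below hESCs in all 5 columns.

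Against hESCs, the counts of the 10 genes that were at least 2-fold away were few, and are read against the share of all names at 1 TPM or more in either stage that passed the same rule. In DE, 0 of the 10 were at least 2-fold higher and 0 lower, where 28.2% of names were higher and 5.55% lower. In PGT, 2 were higher, DNAJB9 (1.63) and HERPUD1 (1.36), and 0 lower, against 23.4% and 10.0% of names. In PP, 0 were higher and 1 lower, ATF4, against 18.9% and 9.63% of names. The counts in these stages were close to or under the shares of all names. In PH, 3 were higher, DDIT3 (1.97), HERPUD1 (1.84) and DNAJB9 (1.19), and 3 were lower, XBP1 (-1.53), HSPA5 (-1.39) and ATF4 (-1.03), against 27.3% and 18.9% of names. In SC-β organoids, 2 were higher, ERN1 (1.38) and HERPUD1 (1.36), and 1 lower, ATF4, against 42.4% and 7.08% of names. In SC-β organoids the share of higher genes was below that of all names, and after median-ratio rescaling none of the 10 was at least 2-fold higher there. The median log2 ratio of the 10 was 0.67 in DE, 0.78 in PGT, 0.38 in PP, 0.24 in PH and 0.60 in SC-β organoids, beside 0.58, 0.41, 0.31, 0.28 and 0.83 for all those names.

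Between neighbouring columns, in the order of the deposited table, the moves lay in XBP1, HSPA5, DNAJB9, HERPUD1 and DDIT3, while the sensors ATF6, ERN1 and EIF2AK3 were within 2-fold in each of these steps. From DE to PGT, 2 genes were at least 2-fold higher, XBP1 (1.18) and HERPUD1 (1.05), and 0 lower, against 4.94% and 10.6% of names. From PGT to PP, 0 were higher and 3 lower, XBP1 (-1.34), HSPA5 (-1.08) and DNAJB9 (-1.06), against 6.30% and 7.46% of names, and only XBP1 stayed past 2-fold under both other scalings. From PP to PH, 2 were higher, DDIT3 (1.49) and HERPUD1 (1.35), and 1 lower, XBP1 (-1.08), against 11.5% and 12.8% of names. DDIT3 and HERPUD1 stayed past 2-fold under both other scalings, and XBP1 did not. From PH to SC-β organoids, 2 were higher, HSPA5 (1.21) and XBP1 (1.21), and 0 lower, against 28.1% and 4.60% of names. Neither stayed past 2-fold under the other scalings, where DDIT3 was instead at least 2-fold lower (-1.45 rescaled, -1.43 without the structural RNAs). PP and SC-β organoids, the columns on either side of PH, were nearer to each other: 0 of the 10 were at least 2-fold higher and 0 lower in SC-β organoids, against 20.7% and 1.84% of names, and HERPUD1 differed most, at 0.88. After rescaling HSP90B1 (-0.04), XBP1 (-0.13), EIF2AK3 (-0.16) and DNAJB9 (-0.02) changed sign in this step, so no direction is given for them.

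Hormone load was taken as the summed TPM of INS, GCG, SST, PPY, IAPP and GHRL, the secreted peptides of islet cells. It was 1.28 TPM in hESCs, 1.81 in DE and 3.38 in PGT, then 89.8 in PP, 115.7 in PH and 3324 in SC-β organoids. In SC-β organoids GCG (glucagon) supplied 2793 TPM, INS (insulin) 298, SST (somatostatin) 203, PPY (pancreatic polypeptide) 15.1, GHRL (ghrelin) 12.7 and IAPP (islet amyloid polypeptide) 1.83. Glucagon mRNA thus made up most of the load in a culture named for β cells. Before the PP stage the table lists both INS and GCG at 0.

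The chaperone mRNAs did not scale with this load. From PP to SC-β organoids the load was 37.0-fold higher, whereas the sum of 19 other ER chaperones and foldases was 1.03-fold (2482 to 2548 TPM), HSPA5 went from 104.1 to 141.5 TPM and HSP90B1 from 494.9 to 580.9 TPM. After rescaling, the load was 30.6-fold higher and the chaperone sum 0.85-fold, and HSP90B1 lay slightly below PP in SC-β organoids, at a log2 ratio of -0.04 in place of 0.23. The islet hormone sum per HSPA5 was 0.00798 in hESCs, 0.863 in PP, 1.91 in PH and 23.5 in SC-β organoids. The highest HSPA5 and HSP90B1 levels were in DE, where the load was 1.81 TPM. Over the 6 stage means, Pearson's r of log2(TPM + 1) of a gene with log2(load + 1) was -0.55 for HSPA5, -0.53 for HSP90B1, -0.45 for XBP1, -0.77 for ATF4, 0.70 for ERN1, 0.59 for ATF6, 0.56 for HERPUD1, 0.44 for DDIT3, 0.11 for DNAJB9 and -0.20 for EIF2AK3. Spearman's rho was -0.66 for each of HSPA5, HSP90B1 and XBP1, -0.89 for ATF4, 0.60 for ERN1 and 0.49 for ATF6. On linear TPM, where SC-β organoids alone set the load apart, r was -0.15 for HSPA5, -0.11 for HSP90B1, -0.41 for ATF4, 0.73 for ERN1 and 0.72 for ATF6. These are descriptions of 6 points that share their scale. The coefficients also moved without SC-β organoids and hESCs, the 2 stages farthest from the median load on the log2 scale (n = 4). There r of the log2 values became -0.90 for ATF6 and -0.19 for ERN1, so that the positive values of both rested on the 2 stages left out. It became -0.96 for HSPA5, -0.91 for HSP90B1, -0.95 for EIF2AK3, -0.73 for XBP1 and -0.29 for DNAJB9. For ATF4 (-0.78), DDIT3 (0.41) and HERPUD1 (0.35) the sign stayed as with all 6 stages.

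Hormones are not the only cargo. The hormones together with granins and prohormone processing proteins, 15 liver-type secreted proteins and 16 matrix proteins (48 genes in 4 lists) summed to 1576 TPM in hESCs, 5466 in DE and 11220 in PGT, then 3376 in PP, 2148 in PH and 9515 in SC-β organoids. PGT carried the highest cargo sum, of which FN1 (fibronectin) was 7276 TPM and the liver-type list 2577 TPM, and islet hormones were 34.9% of the sum in SC-β organoids. XBP1 and DNAJB9 were highest in PGT, and HERPUD1 was higher there than in hESCs, DE and PP. HSPA5 stood lowest where the cargo sum was second lowest, in PH, but the cargo sum per HSPA5 still ranged from 9.84 in hESCs through 50.7 in PGT to 67.2 in SC-β organoids. Pearson's r with the cargo sum, both as log2(TPM + 1) over 6 stages, was 0.88 for ATF6, 0.79 for EIF2AK3, 0.75 for ERN1, 0.63 for DNAJB9, 0.55 for XBP1, 0.52 for HSPA5, 0.38 for HSP90B1, 0.36 for HERPUD1, 0.11 for DDIT3 and -0.37 for ATF4. Without PGT and hESCs, the stages farthest from the median on that scale, it was 0.92, 0.62 and 0.80 for the 3 sensors in the same order. DNAJB9 (-0.45), HERPUD1 (-0.24) and DDIT3 (-0.50) were then negative. With only PH left out (n = 5), r was instead 0.90 for DNAJB9, 0.91 for HERPUD1 and 0.98 for DDIT3. The values of these 3 genes thus depended on which stages were kept.

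**Figure D3:**
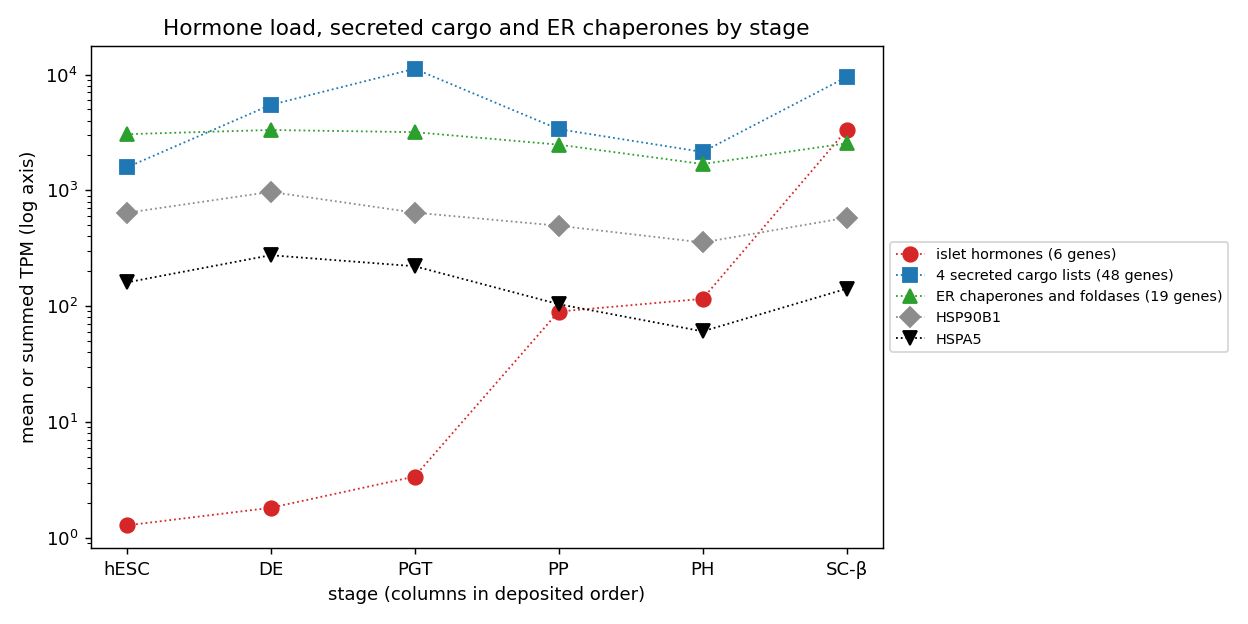
Mean or summed TPM (vertical log axis) at the 6 stages (horizontal axis) for islet hormones, the 4 secreted cargo lists, 19 ER chaperones and foldases, HSP90B1 and HSPA5. Dotted lines join the deposited means and stand for no measurement. The hormone sum was 3324 TPM in SC-β organoids against 89.8 TPM in PP, while the chaperone sum stayed between 1688 and 3321 TPM.

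Other genes of the response were taken as 6 lists with 93 distinct genes. Over all 93, 13 were at least 2-fold higher than in hESCs and 11 lower in DE, 13 and 16 in PGT, 6 and 11 in PP, 8 and 21 in PH, and 17 and 8 in SC-β organoids. The shares of all names given above were higher than those of the 93 on the upper side in every stage. On the lower side they were smaller than those of the 93 in every stage. ATF4 targets were 9 of the 11 lower genes in DE, 12 of 16 in PGT, 9 of 11 in PP, 6 of 21 in PH and 8 of 8 in SC-β organoids. Median-ratio rescaling turned the balance in SC-β organoids to 7 higher and 24 lower, so no overall direction is given for that stage.

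Among the 19 ER chaperones and foldases, 16 were lowest in PH as deposited and 8 after either other scaling. Of all 12849 names at 10 TPM or more in some stage, 38.1% were lowest in PH as deposited and 26.0% after rescaling, and the part of the scale in the count of chaperones was not tested further. PDIA4, a disulfide isomerase, had 311.2 TPM in hESCs, 212.1 in PP, 107.8 in PH and 157.5 in SC-β organoids. PPIB, an ER prolyl isomerase, had 546.3, 438.7, 234.7 and 449.7 TPM in the same stages, and PDIA6 had 321.7, 241.1, 134.7 and 213.8 TPM. CALR, the calreticulin lectin, had 403.3 (PH) to 698.3 TPM (DE), and CANX, the calnexin lectin, had 216.1 (PH) to 354.8 TPM (hESCs). The 3 genes not lowest in PH were TXNDC5, SIL1 and ERO1B. TXNDC5, a disulfide isomerase, had 84.8 TPM in hESCs, 23.0 in DE and 23.5 in PH. SIL1, a nucleotide exchange factor of BiP, had 10.1 TPM in hESCs, 19.4 in PP, 24.0 in PH and 29.4 in SC-β organoids. ERO1B, an oxidase of disulfide isomerases known for its high expression in pancreatic islets, had 1.46 TPM in hESCs, 6.08 in PP, 6.20 in PH and 27.6 in SC-β organoids. Its log2 ratio between SC-β organoids and PP was 2.01, and it was the only gene of this list at least 2-fold higher in that step, beside 20.7% of all names. Its close relative ERO1A had 17.4 and 26.6 TPM there.

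The promoter element described above was in the windows of 5 of 17 listed chaperones that have a window: CALR, CANX, CRELD2, ERO1B and PDIA6. DNAJC3, which is also in the eIF2 list, was not counted among the 17. With HSPA5, HSP90B1 and XBP1 this made 8 genes, of which 7 were lowest in PH as deposited and ERO1B was lowest in hESCs. After either other scaling 4 of the 8 were lowest in PH: HSPA5, HSP90B1, XBP1 and PDIA6. Most listed chaperones without the element were lowest in PH as well. Of all 19 listed chaperones, 16 were lowest there as deposited and 8 after either other scaling. A low value in PH thus did not set the genes with the element apart. HERPUD1, which held element II, was highest in PH under all 3 scalings, and HYOU1 and SDF2L1, the listed chaperones with element II, had 86.6 and 9.67 TPM in PH, their lowest values as deposited.

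**Figure D4:**
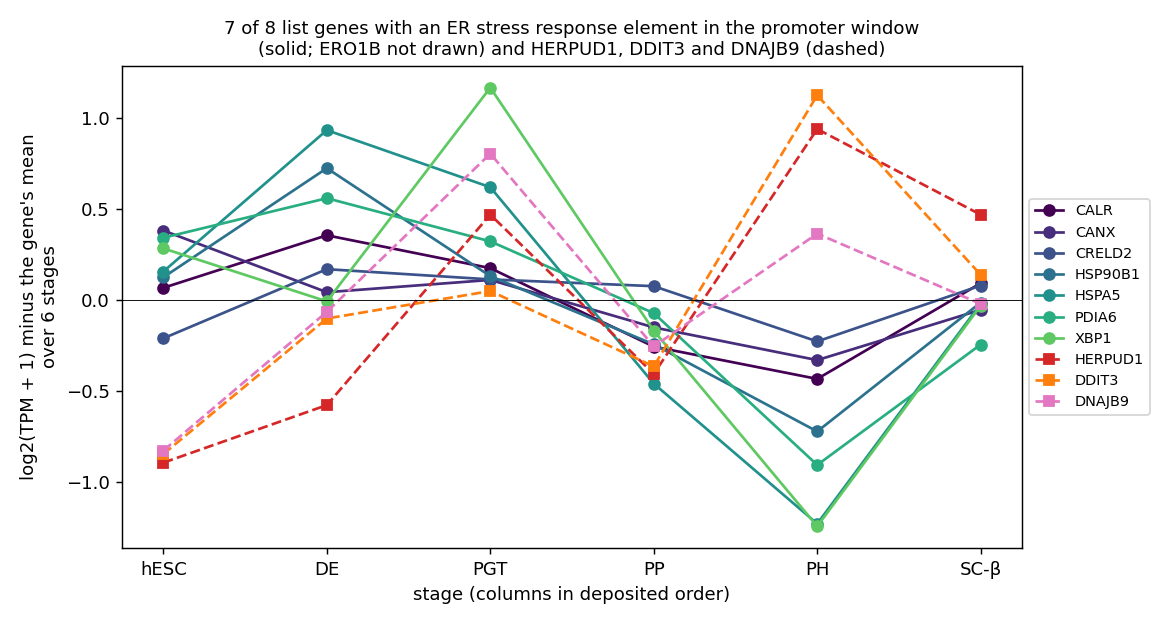
Log2(TPM + 1) minus the mean of each gene over 6 stages (vertical axis) by stage (horizontal axis), solid for 7 of the 8 genes with an ER stress response element in the promoter window and dashed for HERPUD1, DDIT3 and DNAJB9. The solid lines are lowest in PH, where HSPA5 had 60.6 TPM, and the dashed lines are above their mean there. The dashed genes are the 3 of the 10 that were at least 2-fold above hESCs in PH. ATF4, ATF6, ERN1 and EIF2AK3, which have no match either, are not drawn. The contrast in PH thus follows from the choice of lines and is no comparison of genes with and without the element. ERO1B, highest in SC-β organoids at 27.6 TPM, is not drawn, and CALR, CANX and CRELD2 were not lowest in PH under the other scalings.

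The 17 ATF4 targets, genes of amino acid supply and stress signalling, stood mostly below hESCs, as ATF4 itself did. At least 2-fold lower were 9 of 17 in DE, 12 in PGT, 9 in PP, 6 in PH and 8 in SC-β organoids, and at least 2-fold higher were 1, 1, 0, 1 and 1, where the shares of all names lower ran from 5.55% to 18.9%. Their median log2 ratios to hESC were -1.07, -1.65, -1.12, -0.33 and -0.67, negative also under both other scalings in each stage (-0.02 in PH without the structural RNAs). SLC3A2, the heavy chain of amino acid exchangers, had 416.9 TPM in hESCs and 73.0 in PP. SLC7A5, a light chain of the same transporters, had 227.6 TPM in hESCs and 8.57 in PP, the lowest log2 ratio of the list at -4.58. PSAT1, an enzyme of serine synthesis, had 243.7 TPM in hESCs and 28.8 to 63.8 TPM elsewhere, and MTHFD2, a mitochondrial folate enzyme, had 111.7 and 14.8 to 25.9 TPM. PPP1R15A (GADD34), which returns eIF2 to its unphosphorylated state, went the other way, with 16.7 TPM in hESCs and 20.8 to 40.2 TPM in the later stages.

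In PH a subset of these targets stood higher than in PP, as did DDIT3. ATF4 mRNA itself differed little between PH and PP (185.7 and 176.5 TPM, a log2 ratio of 0.07, or 0.30 rescaled and 0.31 without the structural RNAs). At least 2-fold higher in PH than in PP were 5 of the 17 and 0 were lower, beside 11.5% and 12.8% of all names. ASNS (asparagine synthetase) had 79.9 against 22.6 TPM, DDIT4 (an inhibitor of mTORC1) 78.7 against 25.6, and CHAC1 (a glutathione-degrading enzyme) 13.9 against 3.13. TRIB3, a pseudokinase induced with CHOP, had 9.26 against 4.00 TPM, and SLC7A5 had 22.8 against 8.57. All 5 stayed past 2-fold under both other scalings. In SC-β organoids ASNS (31.2 TPM), DDIT4 (35.8), CHAC1 (3.60) and TRIB3 (4.05) were each at least 2-fold below PH. By contrast, PSAT1, PHGDH and MTHFD2 were not higher in PH than in PP, with log2 ratios of -0.40, -0.19 and -0.41. Of 10 cytosolic and mitochondrial heat shock genes, which answer to heat shock factor rather than to the ER sensors, 4 were highest and 3 lowest in PH. The inducible genes HSPA1A (173.3 TPM), HSPA1B (220.9), DNAJB1 (155.7) and HSP90AA1 (840.9) were the 4, and HSPA8 (753.3 TPM), HSP90AB1 (423.0) and HSPD1 (203.7) were the 3. These counts moved with the scaling. After rescaling 4 were highest and 2 lowest in PH, and without the structural RNAs 6 and 2, with HSPA8 not lowest under either. The share of all names highest in PH was not computed. The higher neural and mesenchymal marker sums and the higher structural RNA share of PH moved with these values, and their part in them was not tested.

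**Figure D5:**
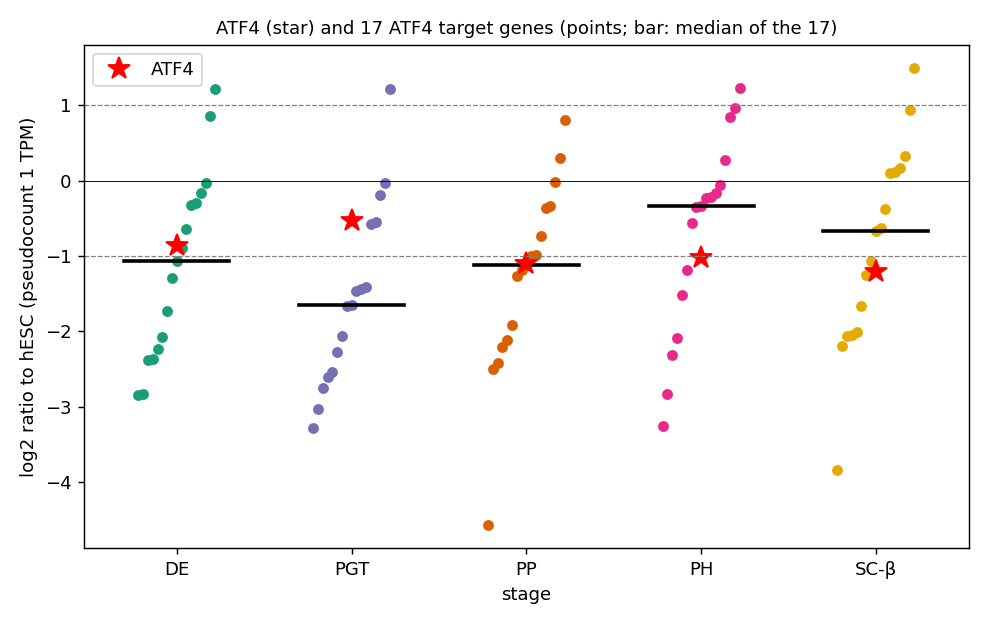
Log2 ratio to hESC (vertical axis, pseudocount 1 TPM) of ATF4 (star) and of 17 ATF4 targets (points, with a bar at their median) in the 5 differentiated stages. Dashed lines mark 2-fold. ATF4 is below hESCs in each stage, and the median of the targets is lowest in PGT (-1.65) and nearest to hESCs in PH (-0.33).

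Genes of ER-associated degradation and of export from the ER are given next. Of 16 ER-associated degradation genes, 5 were at least 2-fold higher in SC-β organoids than in hESCs and 0 lower, beside 42.4% and 7.08% of all names. Their median log2 ratio was 0.75 (0.83 for all names), and after rescaling 0 were higher and 3 lower. The shares of all names were not recomputed after rescaling. SEL1L, the partner of the ubiquitin ligase HRD1, had 37.2 TPM in SC-β organoids (log2 ratio to hESC 1.35), and SYVN1, HRD1 itself, had 4.88 and 12.5 TPM. OS9, an ER lectin, had 49.7 TPM in hESCs and 101.4 to 132.1 TPM in the other stages. VCP, the ATPase that extracts substrates, had 109.3 (PH) to 287.2 TPM (DE). Of 21 translocation and export genes, 2 were higher in SC-β organoids and 0 lower, beside the same 42.4% and 7.08%. After rescaling 0 were higher and 5 lower. SEC31A, a COPII coat protein, had 150.8 TPM in PGT and 149.5 in SC-β organoids, against 54.3 in hESCs and 75.9 in PP, a course shared by SEC24D, another coat protein, at 38.8 and 35.5 TPM against 28.4 and 14.4 TPM. Both had their 2 highest values in the stages with the 2 highest cargo sums, whereas SEC23B, a coat protein of the same kind, had 50.9 TPM in hESCs, 41.4 in PGT and 28.9 in SC-β organoids.

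Of 13 related sensors and proteases, 7 were at least 2-fold higher in SC-β organoids than in hESCs and 0 lower, beside 42.4% and 7.08% of all names, and 5 and 1 after rescaling. ATF6B, the relative of ATF6, had 6.38 TPM in hESCs, 21.2 in DE, 29.5 in PP, 37.1 in PH and 38.3 in SC-β organoids, so it exceeded ATF6 from DE on and had a wider range. CREB3L2, a membrane-bound factor of secretory cells, had 37.1 TPM in PGT and 36.8 in SC-β organoids, against 6.37 in PH. MBTPS1, the protease that makes the first cut in ATF6, had 26.0 TPM in hESCs and 57.2 TPM in SC-β organoids. WFS1 (wolframin), an ER protein of β cells, had 7.35 TPM in hESCs, 6.61 in PP, 2.83 in PH and 12.2 in SC-β organoids. TXNIP, a redox regulator known to be induced in stressed islets, had 3.29 TPM in hESCs, 47.4 in PP, 20.5 in PH and 49.2 in SC-β organoids. ERN2, the epithelial relative of ERN1, stayed at or below 1.12 TPM. Of the 8 genes that control eIF2 phosphorylation, none was at least 2-fold from hESCs in SC-β organoids, and in PH only EIF2S1, the phosphorylated subunit itself, was (63.4 and 21.0 TPM). The shares of all names in PH were 27.3% higher and 18.9% lower.

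Among the 45 pairs of the 10 genes, the likeness of their courses (Pearson's r of log2(TPM + 1) over 6 stage means) set HSPA5 beside HSP90B1 (0.96), ATF6 beside ERN1 (0.96) and DDIT3 beside HERPUD1 (0.89). Without PH these values were 0.91, 0.97 and 0.85 (n = 5). The partner of DDIT3 changed with that stage: its r with ATF6 was 0.44 with PH and 0.98 without, and with ERN1 0.54 and 0.93. XBP1 was like HSPA5 (0.79) and HSP90B1 (0.61) with PH, but at 0.45 and 0.058 without it, so its likeness to the chaperones rested on that stage. ATF4 and ERN1 ran opposite, at -0.88. Over 9530 names at 10 TPM or more in some stage and with a range of at least 2-fold, the 2 courses most like each of the 8 genes that ranged at least 2-fold were STX4 and PDIA5 for HSPA5, CD63 and PHACTR2 for HSP90B1, ENO1P1 and SYDE2 for XBP1, and SNORD116-8 and GLDC for ATF4. They were C11orf95 and GMIP for DDIT3, CEP350 and SPPL3 for ERN1, UBE2Q2 and PLCXD2 for DNAJB9, and MIR616 and KLHL24 for HERPUD1. With 6 points such likeness is common: 293 names reached an r of 0.95 with ERN1, 103 with HSP90B1, 97 with HSPA5, 57 with DDIT3, 20 with XBP1, 19 each with DNAJB9 and HERPUD1, and 12 with ATF4. Over the 10 genes, 8 ranged at least 2-fold between their lowest and highest stage, as did 77.9% of 28202 names at 1 TPM or more in some stage.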

How the data were processed

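RNA-seq reads of 12 samples (6 stages of H9 differentiation, 2 replicates each) were aligned to hg38 with HISAT2 (version 2.2.0) and quantified with StringTie (version 2.1.6), per the labels and the submitters' processing notes. The gene annotation was not given in the sources used here. Both ribosomal RNA depletion and a stranded mRNA kit are named for the libraries. The authors deposited TPM per gene averaged over the replicates of a stage (50451 entries under 49085 names, with the entries of 231 repeated names summed here). Replicate values and read depth are thus unknown, and with 1 value per stage no error, interval or p-value was computed. The study's methods describe its replicates as independent biological ones. The other assays of the series are not analysed here.

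Stages were compared by log2 ratios with a pseudocount of 1 TPM and a threshold of 2-fold, with names at 1 TPM or more in either stage as background. The computation used matplotlib 3.10.9 and pandas 2.3.3 with numpy 2.4.6 and scipy 1.17.1 under Python 3.11.15, and the scripts were tested on simulated data. Positions are from GENCODE version 44 (GRCh38) and promoter sequences from RefSeq (GRCh38.p14), in which all 10 genes were matched by symbol. No protein sequence was used here. The alternatives were a pseudocount of 0.1 TPM, median-ratio rescaling, totals without structural RNAs, a 1.5-fold threshold, no filter, the highest entry of a repeated name and other hormone sums. The genes, lists and tests were chosen with earlier results of these data known. Named genes were the 10 genes, the islet hormones, up to 6 of each list by mean TPM, the 2 largest ratios of each list between SC-β organoids and hESCs and between SC-β organoids and PP, and the 2 most alike names per gene. The following were named after their values were seen: HYOU1, TXNDC5, ERO1A, SDF2L1, CRELD2, TRIB3, CHAC1, DDIT4, PPP1R15A, ERN2, WFS1, SEC23B, HSPA1A, HSPA1B and DNAJB1, with MIR616 and MBD6 as neighbours of DDIT3. ER stress response element II, the likeness and the cargo correlations without PH, correlations on linear TPM and the other scalings of steps between stages were also added after the data were seen.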

Additional observations from a re-analysis of the deposited data

How the results depend on the processing

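No paired analysis was possible because each deposited column is already the mean of its stage, and for the same reason no replicate could be left out. The depth behind each mean is unknown, so how far replicates or counting error could move a value cannot be given. Of 200 log2 ratios to hESC of the 10 genes recomputed under the alternatives, 182 kept their sign and their side of 2-fold, 3 fell under 2-fold, 11 passed it, 4 that were under 2-fold changed sign, and 0 that were past 2-fold reversed. Of 150 counts, 110 stayed within 1.5 times. The highest entry of a repeated name moved none of the values, since each of the 10 genes had a single entry, and leaving out the filter on low values left all 20 background counts unchanged, which a pseudocount of 1 TPM fixes for names under 1 TPM.

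With a pseudocount of 0.1 TPM, 1 of the 10 genes was at least 2-fold higher than hESC in DE, 4 in PGT and 1 in PP, and 1 was lower in SC-β organoids than in PH. With median-ratio rescaling, 1 gene was lower in DE, 0 were higher in SC-β organoids, 1 was lower in PP than in PGT, 0 in PH than in PP, and from PH to SC-β organoids 0 were higher and 1 lower. Of the 93 pathway genes, 2 were then higher and 18 lower in DE, 3 higher in PP, and 7 higher and 24 lower in SC-β organoids. Without the structural RNAs, 1 of the 10 was lower in DE, 1 higher in PP, 1 lower in PP than in PGT, 0 in PH than in PP, and from PH to SC-β organoids 0 were higher and 1 lower, and 15 pathway genes were higher in PH. At 1.5-fold, 6 of the 10 were higher and 1 lower in DE, 7 higher in PGT, 1 higher and 2 lower in PP, and 5 higher in SC-β organoids. Between stages 1 was then lower in PGT than in DE, 2 in PH than in PP, 1 in SC-β organoids than in PH, and 1 was higher in SC-β organoids than in PP. Pathway genes at 1.5-fold numbered 22 higher and 17 lower in DE, 24 higher in PGT, 12 higher and 21 lower in PP, 16 higher in PH, and 30 higher and 20 lower in SC-β organoids. A lower threshold passes more genes by construction. The shares of all names past the threshold were not computed under any of these settings, here or above. The counts thus show only how far the calls depend on the processing, and say nothing about these genes beside all names.

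Adding gut hormones made the load in SC-β organoids 14.7-fold that of the highest other stage, which was then hESCs through NTS (226 TPM), and adding granins and processing proteins made it 7.62-fold that of PP, the highest other stage. Without PH, r of XBP1 was 0.45 with HSPA5 and 0.058 with HSP90B1.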
